A study of Rattus norvegicus with 6 samples.

Results

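The circadian clock genes are the 10 rows of the deposited count table named Arntl, Clock, Per1, Per2, Per3, Cry1, Cry2, Nr1d1, Nr1d2 and Dbp, taken by gene name from 34156 genes. They were read in 6 RNA-seq libraries of rat RA-FLS, the fibroblast-like synoviocytes that line the joint, wild type in genotype and labelled with the disease state RA. The TNF-α group held 3 libraries of cells given 10 ng/mL TNF-α, and the TNF-α+EMO group held 3 libraries of cells given the same TNF-α and 80 μmol/L emodin (EMO), an anthraquinone of rhubarb. TNF-α was therefore common to all 6 libraries and no untreated cells were part of the comparison. The cells came from a purchased stock at one passage, the labels give day 5 as the time and the study's methods give 24 h of treatment. Each group was sampled at a single time, and the time of day and any synchronisation of the cells are not given in the sources used here, so a shift in phase and a change in mean level cannot be told apart. In bulk RNA, fewer expressing cells and less RNA per cell cannot be told apart either.

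The mammalian clock is a transcriptional feedback loop that runs in most cells, cultured fibroblasts included. Arntl (also called Bmal1) pairs with Clock and binds E-box elements to activate the Per, Cry, Nr1d and Dbp genes. PER and CRY proteins then repress the pair, while NR1D1 and NR1D2 (REV-ERB) and the ROR receptors act in opposite directions on RORE elements of Arntl. Dbp, an output of the loop, activates genes through D-box elements that Nfil3 represses.

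The libraries held 16813322 to 17794455 counts on genes. Within the TNF-α+EMO group, replicate 3 stood apart, with a chi-square per gene of 25.0 and 16.0 against replicates 1 and 2, beside 6.66 between those and 4.75 to 5.87 between TNF-α libraries. Without it, 8 of the 10 clock genes were called, as with all libraries. The named fibroblast markers Col1a1 and Pdgfra were abundant in the TNF-α group, whereas Thy1, Prg4 and Pdpn held no more than 7 counts in any library. All 6 tested markers of the 10 listed were called lower with EMO, where 41.4% of all tested genes were. The summed level of the 9 in the table was 188500 to 208990 normalized counts in the TNF-α group and 35094 to 37780 in the TNF-α+EMO group. Most of the TNF-α+EMO sum was Vim, at a mean of 32387, which was only 1.90-fold lower than with TNF-α alone. Col1a1 was 30.0-fold, Pdgfrb 21.8-fold, Cdh11 73.4-fold and Pdgfra 96.4-fold lower. Fap, Thy1, Pdpn and Prg4 were at 0 in every TNF-α+EMO library, and no gene of the count table carried the name Col1a2. Of the tested markers, Fap passed the filter on low counts through its TNF-α libraries alone, so it had to differ once tested. The 5 macrophage markers summed to 1200 to 1300 and 734 to 804 normalized counts, nearly all of it Cd68 and Cd14, with Csf1r, Ptprc and Adgre1 at or near 0. These moved in opposite directions, Cd68 rising from a mean of 153 to 256 normalized counts and Cd14 falling from 1093 to 510. The 4 epithelial markers summed to 9942 to 10802 and 1968 to 2304, nearly all of it Krt8, with Epcam at 0. The part of all these marker differences in the clock gene results was not tested.

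Promoters are shown first for 4 genes whose branch of the loop the results follow, each holding a motif known for that branch. They are RefSeq sequences of GRCr8 from 250 bases before to 50 bases after the start of the gene, 5′ to 3′ on the gene's strand, with motif matches in capitals. The window of Arntl (chr1:176766078-176766377, plus strand) holds a RORE core, that of Per2 (chr9:99496944-99497243, minus strand) a D-box and an E-box-like element, the second of the 2 windows of Nr1d1 (chr10:84229405-84229704, minus strand) an E-box, and that of Ciart (chr2:186112197-186112496, minus strand), a repressor of the Arntl and Clock pair, 3 E-boxes.
Arntl: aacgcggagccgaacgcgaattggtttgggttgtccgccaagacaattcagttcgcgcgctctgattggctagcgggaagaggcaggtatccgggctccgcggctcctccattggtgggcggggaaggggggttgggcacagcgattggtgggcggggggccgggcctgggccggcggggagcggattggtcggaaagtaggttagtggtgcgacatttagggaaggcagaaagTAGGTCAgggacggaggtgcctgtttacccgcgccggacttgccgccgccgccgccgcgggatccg
Per2: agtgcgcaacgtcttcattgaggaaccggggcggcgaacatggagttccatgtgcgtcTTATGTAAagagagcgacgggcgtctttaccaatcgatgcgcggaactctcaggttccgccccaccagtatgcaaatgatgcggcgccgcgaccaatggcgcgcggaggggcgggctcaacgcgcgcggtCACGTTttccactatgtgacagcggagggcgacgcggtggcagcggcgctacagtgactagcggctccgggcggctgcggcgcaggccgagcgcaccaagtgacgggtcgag
Nr1d1: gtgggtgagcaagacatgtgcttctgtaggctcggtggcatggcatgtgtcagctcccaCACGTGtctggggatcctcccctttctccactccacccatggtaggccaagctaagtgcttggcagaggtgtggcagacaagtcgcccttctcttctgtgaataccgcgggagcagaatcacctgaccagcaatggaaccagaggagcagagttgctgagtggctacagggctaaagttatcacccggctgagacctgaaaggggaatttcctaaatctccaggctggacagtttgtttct
Ciart: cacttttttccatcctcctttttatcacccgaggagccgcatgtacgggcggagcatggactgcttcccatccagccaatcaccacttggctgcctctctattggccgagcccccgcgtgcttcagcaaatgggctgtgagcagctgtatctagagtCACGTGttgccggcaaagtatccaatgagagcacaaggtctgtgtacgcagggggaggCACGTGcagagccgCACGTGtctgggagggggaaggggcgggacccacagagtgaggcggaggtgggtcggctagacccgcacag

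The motifs were searched on both strands as CACGTG (E-box), CACGTT (E-box-like), TTATGTAA (D-box), TAGGTCA or TGGGTCA (RORE core) and TGACGTCA (CRE), and no match of one overlapped a match of another in these genes. Of 33469 rat promoters of the same length, 6.42% held the E-box, 4.83% the E-box-like element, 0.893% the D-box, 6.6% the RORE core and 1.83% the CRE. Promoters were matched by symbol or synonym for 9 of the 10 clock genes, with 2 windows each for Clock and Nr1d1 and none for Cry1, and 4 of the 9 held a motif. The RORE core of Arntl lay 16 bases before the start, the E-box-like element and D-box of Per2 lay 62 and 192 bases before it, and the E-box of the second Nr1d1 window lay 191 bases before it. The first Nr1d1 window and that of Cry2 held an E-box-like element at 174 and 212 bases before the start. A match describes these letters only.

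Across the 10 clock genes, EMO was accompanied by lower Per1, Per2, Per3, Nr1d1 and Dbp and by higher Clock, Cry1 and Nr1d2, while Arntl and Cry2 did not pass the test. The 4 differences over 1 on the log2 scale were those of Per3, Per2, Dbp and Cry1. A gene was called when its adjusted p was under 0.05 by edgeR's quasi-likelihood test, adjusted by Benjamini-Hochberg over all 13614 genes tested. All 10 clock genes passed the filter on low counts and 8 were called, 3 higher and 5 lower, against 80.9% of all tested genes called, 39.4% higher and 41.4% lower. The share of called clock genes was thus near the background of this comparison and is no result about them as a group. For 4 clock genes the absolute log2 fold change was also over 1, where 47.3% of all genes were so called, and for 8 the groups did not overlap, where 82.9% of all genes did not. The median log2 fold change was −0.34 and the median absolute log2 fold change 0.54, beside −0.01 and 0.96 over all tested genes.

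**Figure D1:**
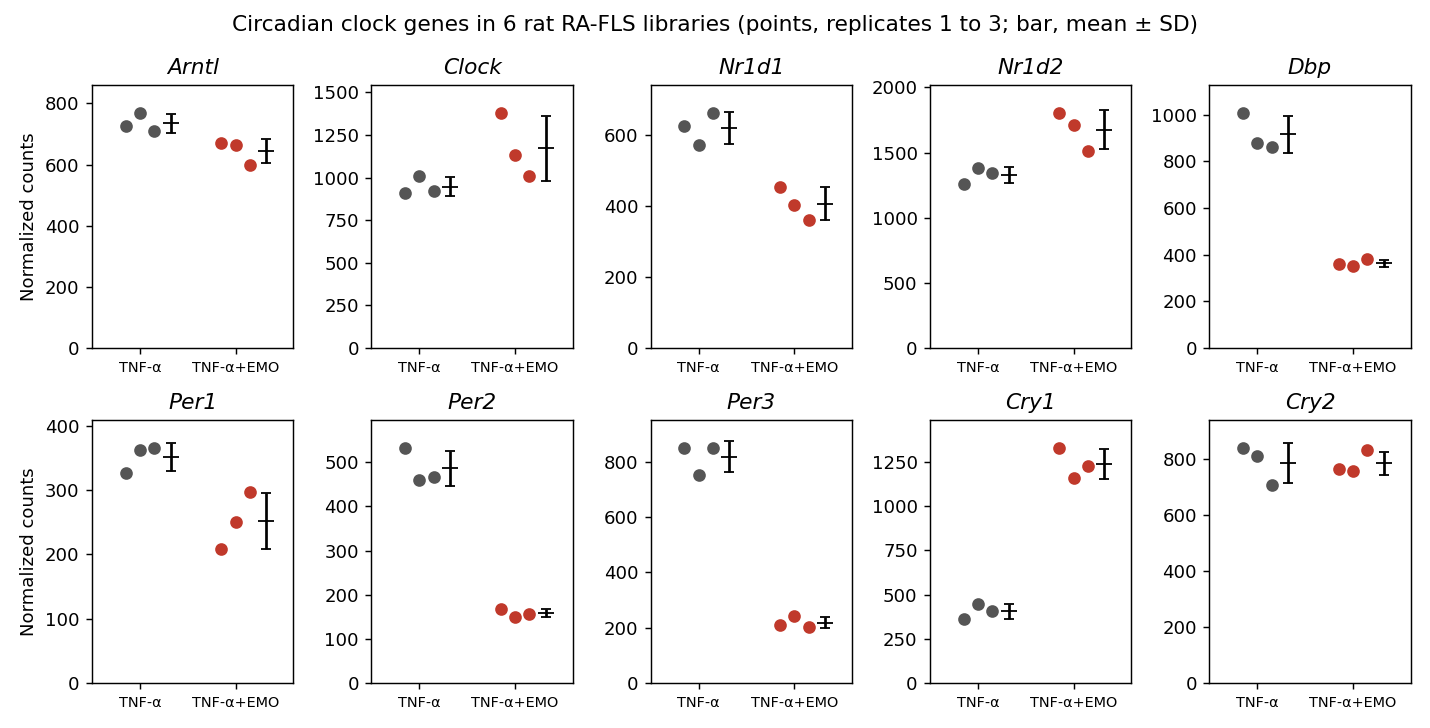
Each panel plots 1 clock gene, with normalized counts (counts scaled by TMM effective library size) on the vertical axis from 0, the 3 libraries of each group as points, and the mean ± SD beside them. Per2, Per3 and Dbp sit far lower and Cry1 far higher in the TNF-α+EMO group, whereas Clock and Cry2 overlap between the groups.

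Arntl and Clock form the activating pair. Arntl (ENSRNOG00000014448, chromosome 1, 178039063 to 178137465, as deposited for Rnor_6.0) held 728, 768 and 709 normalized counts with TNF-α alone and 670, 665 and 598 with EMO added. All 3 TNF-α+EMO values lay below the 3 TNF-α values. Its mean was 735 ± 30.3 and 644 ± 40.4 (SD, n = 3 per group), a log2 fold change of −0.19 (SE 0.08, 95% interval −0.37 to −0.01), with an adjusted p of 0.051 by edgeR, which misses the threshold. Of 15 fits with another setting, 6 called it lower, and the adjusted p ranged from 0.0065 to 0.17.

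Clock (ENSRNOG00000002175, chromosome 14, 34446616 to 34502218) held 909, 1011 and 921 normalized counts with TNF-α alone and 1378, 1131 and 1006 with EMO added. The groups overlapped, since TNF-α+EMO replicate 3 fell below TNF-α replicate 2, and TNF-α+EMO replicate 1 was the highest. The mean rose from 947 ± 55.9 to 1172 ± 189 (SD, n = 3 per group), by a log2 fold change of 0.31 (SE 0.11, adjusted p = 0.023 by edgeR). That call depended on the libraries used. Without TNF-α+EMO replicate 1 the log2 fold change was 0.17 with an edgeR adjusted p of 0.091, and without TNF-α replicate 1 or replicate 3 the adjusted p was 0.079 and 0.080. With scaling by library totals only, it was 0.19 with an adjusted p of 0.14 by edgeR.

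The Per genes encode the period proteins, which repress the activating pair together with the cryptochromes. Per1 (ENSRNOG00000007387, chromosome 10, 55687050 to 55695994) held 327, 362 and 365 normalized counts with TNF-α alone and 208, 250 and 296 with EMO added. Its mean fell from 351 ± 21.4 to 251 ± 44.1 (SD, n = 3 per group), a log2 fold change of −0.48 (SE 0.13, adjusted p = 0.0065 by edgeR). The groups did not overlap, and the TNF-α+EMO libraries spread more widely than the TNF-α libraries.

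Per2 (ENSRNOG00000020254, chromosome 9, 98555169 to 98597359) held 533, 460 and 467 normalized counts with TNF-α alone and 168, 149 and 156 with EMO added. Its mean fell 3.08-fold, from 487 ± 40.1 to 158 ± 9.51 (SD, n = 3 per group), with a log2 fold change of −1.62 (SE 0.11, adjusted p = 1.1e-07 by edgeR). Every TNF-α+EMO library was far below every TNF-α library. Per2 is the clock gene whose promoter above held both an E-box-like element and a D-box.

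Per3 (ENSRNOG00000018413, chromosome 5, 168086998 to 168123395) held 849, 752 and 849 normalized counts with TNF-α alone and 208, 241 and 203 with EMO added. It had the largest absolute log2 fold change of the 10 genes, −1.91 (SE 0.10, adjusted p = 1.4e-08 by edgeR), a 3.75-fold lower level. The mean was 817 ± 56.1 in the TNF-α group and 218 ± 21.0 in the TNF-α+EMO group (SD, n = 3 per group). The 3 period genes thus fell together, and all 3 were called lower in each of the 15 other fits.

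The cryptochromes Cry1 and Cry2 are the main repressors of the activating pair. Cry1 (ENSRNOG00000006622, chromosome 7, 24534615 to 24634097) held 363, 446 and 408 normalized counts with TNF-α alone and 1331, 1162 and 1226 with EMO added. It rose 3.06-fold, from 406 ± 41.4 to 1240 ± 84.8 (SD, n = 3 per group), with a log2 fold change of 1.61 (SE 0.10, adjusted p = 3.8e-08 by edgeR). It was the clock gene with the largest increase, with no overlap between the groups.

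Cry2 (ENSRNOG00000007478, chromosome 3, 81314149 to 81344110) held 842, 812 and 707 normalized counts with TNF-α alone and 765, 760 and 833 with EMO added. The libraries of the groups overlapped. The mean was 787 ± 70.6 and 786 ± 40.7 (SD, n = 3 per group), and the log2 fold change of −0.00 had a 95% interval of −0.20 to 0.19 (SE 0.09, adjusted p = 0.99 by edgeR). Its sign turned in 6 of the 15 other fits, all of them uncalled.

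NR1D1 and NR1D2 are nuclear receptors that repress Arntl. Nr1d1 (ENSRNOG00000009329, chromosome 10, 86683875 to 86690815) held 626, 572 and 661 normalized counts with TNF-α alone and 455, 404 and 362 with EMO added. It fell from 620 ± 44.8 to 407 ± 46.7 (SD, n = 3 per group), a log2 fold change of −0.61 (SE 0.10, adjusted p = 2.3e-04 by edgeR), with no overlap. Nr1d1 overlaps Thra, a thyroid hormone receptor gene on the opposite strand, which fell from a mean of 1773 to 120 normalized counts. The strand setting of the counting is not given in the sources used here, so reads from the shared stretch cannot be told apart and the value of Nr1d1 is uncertain.

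Nr1d2 (ENSRNOG00000046912, chromosome 15, 8730871 to 8757165) held 1259, 1383 and 1345 normalized counts with TNF-α alone and 1802, 1714 and 1513 with EMO added. It rose from 1329 ± 63.8 to 1676 ± 148 (SD, n = 3 per group), a log2 fold change of 0.33 (SE 0.08, adjusted p = 0.0022 by edgeR), and no library overlapped. The REV-ERB genes were called in opposite directions in these counts, but none of the 15 other fits changed how reads of Nr1d1 and Thra were assigned, so the direction of Nr1d1 is uncertain.

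Dbp (ENSRNOG00000021027, chromosome 1, 101687855 to 101692846), a PAR bZIP factor and classic output of the loop, held 1006, 877 and 863 normalized counts with TNF-α alone and 361, 351 and 380 with EMO added. It fell 2.51-fold, from 915 ± 79.1 to 364 ± 14.7 (SD, n = 3 per group), with a log2 fold change of −1.33 (SE 0.09, adjusted p = 1.1e-07 by edgeR). The groups were well apart and the TNF-α+EMO libraries lay close together.

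**Figure D2:**
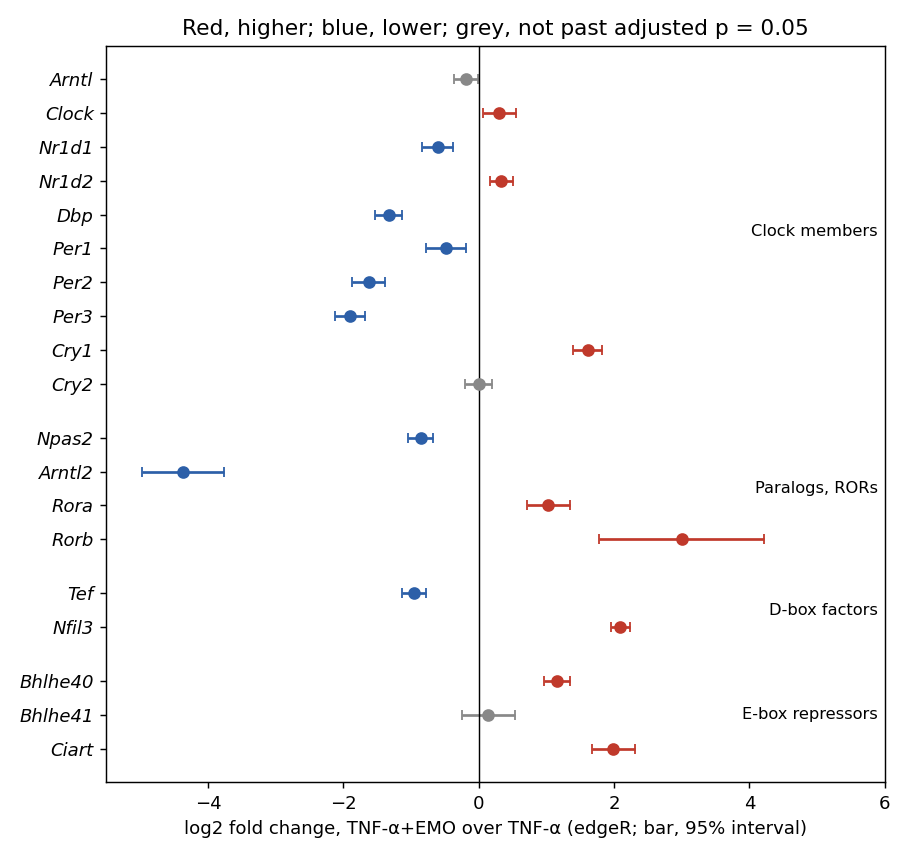
Points are log2 fold changes of TNF-α+EMO over TNF-α from edgeR on the horizontal axis with 95% intervals as bars, for the 10 clock genes and for 9 related genes (paralogs and ROR receptors, D-box factors, E-box repressors). Per3 at −1.91 and Cry1 at 1.61 mark the ends of the 10 clock genes, and the intervals of Cry2 and Bhlhe41 span 0.

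Levels were compared between genes as normalized counts per kilobase of the deposited gene length. In the TNF-α group the order from the highest was Dbp at 538 ± 46.5 (SD, n = 3), Nr1d2 at 288 ± 13.8, Arntl at 247 ± 10.2, Nr1d1 at 243 ± 17.6, Cry2 at 198 ± 17.8, Cry1 at 139 ± 14.2, Per3 at 126 ± 8.67, Clock at 101 ± 5.93, Per1 at 86.7 ± 5.28 and Per2 at 84.1 ± 6.93. The neighbours Arntl and Nr1d1, Cry1 and Per3, and Per1 and Per2 overlapped in their libraries and could not be ranked. In the TNF-α+EMO group the order was Cry1 at 424 ± 29.0, Nr1d2 at 364 ± 32.2, Arntl at 217 ± 13.6, Dbp at 214 ± 8.64, Cry2 at 198 ± 10.3, Nr1d1 at 160 ± 18.3, Clock at 124 ± 20.1, Per1 at 62.1 ± 10.9, Per3 at 33.6 ± 3.24 and Per2 at 27.3 ± 1.64 per kilobase. There Arntl, Dbp and Cry2 overlapped from neighbour to neighbour, as did Nr1d1 and Clock. Dbp was the highest in the TNF-α group and Cry1 in the TNF-α+EMO group, each without overlap with the next gene. The place of Cry1 in the TNF-α group and that of Dbp in the TNF-α+EMO group are orders of means only. Per2 stayed the lowest in mean level. The places of Nr1d1 share the uncertainty of its counts.

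**Figure D3:**
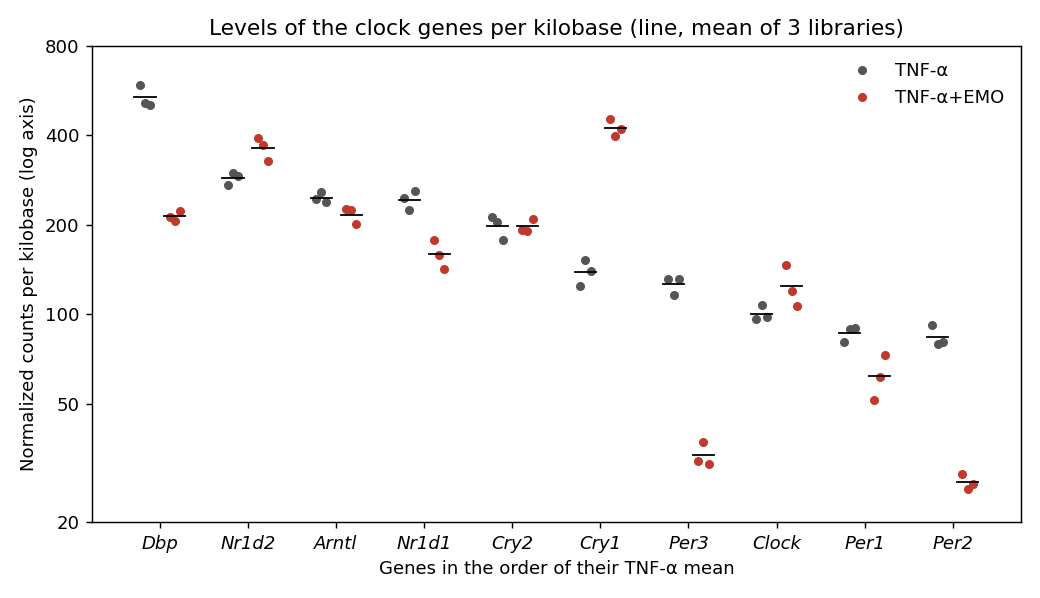
Normalized counts per kilobase of the 10 clock genes on a log axis, with the genes in the order of their TNF-α mean, points for the 3 libraries of each group and a line at each mean. Cry1 stands at 424 in the TNF-α+EMO group against 139 in the TNF-α group, and Per2 and Per3 drop below 40 in every TNF-α+EMO library.

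Ratios of counts between 2 genes of the same library do not depend on the scaling between libraries, and were compared as log2 values, with only the difference between groups read because gene lengths differ. The Cry1 to Cry2 ratio was −1.21, −0.87 and −0.79 with TNF-α alone and 0.80, 0.61 and 0.56 with EMO added, a difference of 1.61. The Dbp to Nfil3 ratio, an activator against a repressor of D-box genes, was 0.75, 0.56 and 0.51 with TNF-α alone and −2.80, −2.91 and −2.74 with EMO added, a difference of −3.42. Both differences were many times the spread between libraries of a group, and the values of the groups lay on opposite sides of a wide gap.

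The log2 ratio of Clock to its paralog Npas2 was 0.08 ± 0.05 in the TNF-α group and 1.24 ± 0.18 in the TNF-α+EMO group (SD, n = 3 per group), and that of Arntl to its repressor Nr1d1 was 0.25 ± 0.16 and 0.67 ± 0.09. The ratios of Per2 to Per1, Per3 to Per1 and Nr1d1 to Nr1d2 were added after the values had been seen and differed by −1.13, −1.41 and −0.94. Each of these 3 ratios was lower in every TNF-α+EMO library than in any TNF-α library. Because they were chosen with the values known, that separation is no support for a difference. The other pairs were drawn from genes chosen with earlier results of these data known, so their separation is no independent support either. The ratios with Nr1d1 share the uncertainty of its counts. For each of the 7 ratios the groups did not overlap, and the exact two-sided permutation p was 0.1 (0.1 after adjustment over the 7), the smallest that 3 libraries against 3 allow, so none could pass 0.05.

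**Figure D4:**
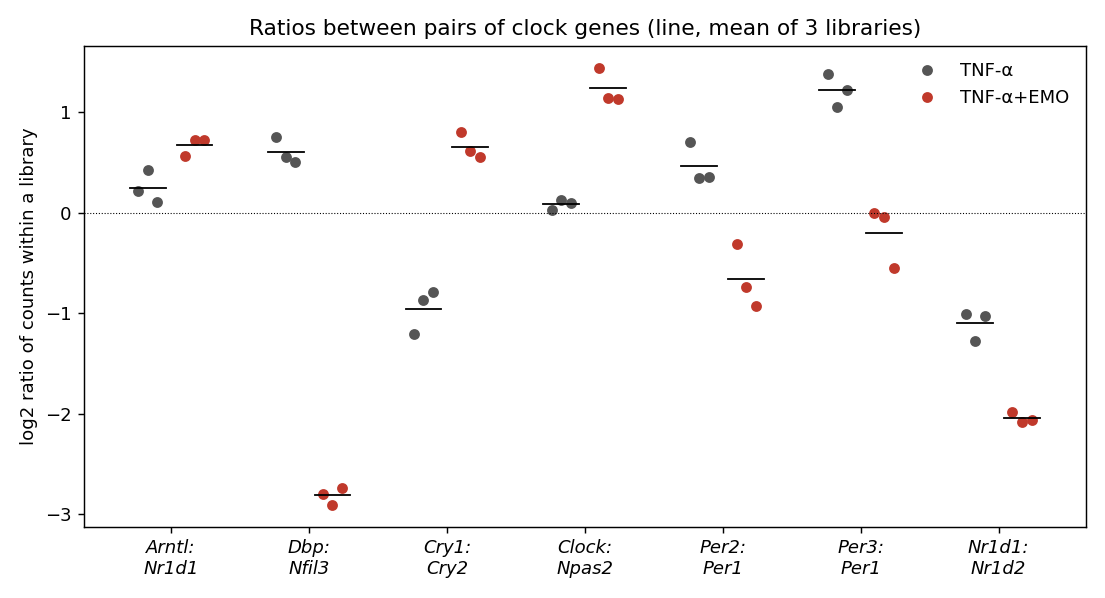
The log2 ratio of counts of 2 genes within a library is on the vertical axis for 7 pairs, with points for the 3 libraries of each group and a line at the mean. The groups do not overlap for any pair, and Dbp to Nfil3 moves most, from 0.61 to −2.81. Per2 to Per1, Per3 to Per1 and Nr1d1 to Nr1d2 were added after the values had been seen.

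Beyond the 10 genes, a list of 38 other clock genes was read, of which 34 passed the filter on low counts. Hlf, Avp and Cyp7a1 held 0 counts in every library, which allows up to 3 counts per library. Of the 34, 27 were called, 11 higher and 16 lower, near the background of 80.9%, and 14 had an absolute log2 fold change over 1 (8 higher and 6 lower), where 47.3% of all genes had. The groups did not overlap for 28, where 82.9% of all genes did not, and the median log2 fold change was −0.16 and the median absolute value 0.87, beside −0.01 and 0.96 over all genes.

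The paralogs of the activating pair were both lower with EMO. Npas2, which can replace Clock, held 894, 926 and 863 normalized counts with TNF-α alone and 507, 513 and 459 with EMO added, a log2 fold change of −0.86 (SE 0.08, adjusted p = 1.9e-06 by edgeR). Arntl2, the paralog of Arntl, held 114, 101 and 110 normalized counts with TNF-α alone and 5.16, 6.14 and 4.07 with EMO added, a log2 fold change of −4.37 (SE 0.28, adjusted p = 6.5e-08 by edgeR). Arntl2 passed the filter through its TNF-α libraries alone, and such a gene had to differ once tested.

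Rora and Rorb, receptors that activate Arntl at the RORE, were higher with EMO. Rora rose from 135 ± 19.1 to 276 ± 23.3 normalized counts (SD, n = 3 per group), a log2 fold change of 1.03 (SE 0.14, adjusted p = 5.2e-05 by edgeR). Rorb was low, with 4, 2 and 1 raw counts with TNF-α alone and 20, 24 and 12 with EMO added, and passed the filter only through the latter. Its log2 fold change was 3.00 (SE 0.55, adjusted p = 4.2e-04 by edgeR), and with at least 50 counts required it was not tested.

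The D-box factors moved apart. Tef, a PAR bZIP activator like Dbp, held 2226, 2293 and 2045 normalized counts with TNF-α alone and 1080, 1055 and 1245 with EMO added, a log2 fold change of −0.96 (SE 0.08, adjusted p = 7.0e-07 by edgeR). Nfil3, the D-box repressor, held 596, 596 and 607 normalized counts with TNF-α alone and 2511, 2632 and 2533 with EMO added. It rose 4.27-fold, with a log2 fold change of 2.09 (SE 0.06, adjusted p = 1.5e-10 by edgeR). Dbp and Tef thus fell and Nfil3 rose, each without overlap between the groups.

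Of the 3 E-box repressors, 2 were higher with EMO. Ciart, whose promoter held 3 E-boxes at 93, 35 and 21 bases before the start, held 80.4, 93.6 and 116 normalized counts with TNF-α alone and 382, 390 and 381 with EMO added, a log2 fold change of 1.99 (SE 0.14, adjusted p = 2.1e-07 by edgeR). Bhlhe40 (Dec1) rose from 1143 ± 147 to 2551 ± 73.4 normalized counts (SD, n = 3 per group), a log2 fold change of 1.16 (SE 0.09, adjusted p = 3.1e-07 by edgeR). Its paralog Bhlhe41 (Dec2) was at 120 ± 22.3 and 132 ± 6.14 and was not called (log2 fold change 0.14, SE 0.18, adjusted p = 0.48 by edgeR). Single E-boxes also lay before Tef at 198, Bhlhe40 at 220, Bhlhe41 at 48 and Gsk3b at 195 bases. Of the tested genes with an E-box, Ciart and Bhlhe40 were called higher, Tef, Gsk3b and Nr1d1 (whose value is uncertain) lower, and Bhlhe41 was not called.

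Among the 8 kinases and ubiquitin enzymes that set the stability of PER and CRY proteins, 2 were called higher and 3 lower. Beside the 80.9% called over all genes, the share of so short a list is no result about these enzymes. One of the higher calls, that of Btrc at a log2 fold change of 0.20, was kept in 8 of the 15 other fits. Fbxl21, a ubiquitin ligase subunit for CRY, fell from 163 ± 30.9 to 36.2 ± 11.5 normalized counts (SD, n = 3 per group), a log2 fold change of −2.16. Usp2, a deubiquitinase, and Gsk3b, a kinase, had log2 fold changes of −1.09 and −0.42, and the edgeR adjusted p of these 3 genes was 1.2e-05, 4.4e-05 and 9.8e-04. The casein kinases that phosphorylate PER, Csnk1d and Csnk1e, were not called, with log2 fold changes of 0.00 (95% interval −0.13 to 0.13) and 0.03 (−0.13 to 0.19), and neither was Fbxw11 at 0.13 (−0.04 to 0.30).

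Among the 5 partners of the clock proteins, 4 were called lower and none higher, beside 80.9% of all tested genes called and 41.4% called lower. Timeless, which also acts at replication forks, fell 8.64-fold, from 1323 ± 81.3 to 153 ± 0.73 normalized counts (SD, n = 3 per group; adjusted p = 1.1e-10 by edgeR). Its partner Tipin had a log2 fold change of −0.88 and Nono, an RNA-binding partner of PER, one of −0.54, with edgeR adjusted p of 4.9e-05 and 5.0e-06. Hdac3, the deacetylase recruited by REV-ERB, was not called at −0.07 (95% interval −0.21 to 0.08).

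Of the 6 input genes, which carry cAMP and glucocorticoid signals to the Per genes, 1 was called higher and 3 lower. Beside the 80.9% called over all genes, the share of so short a list is no result about these genes. The gene called higher was Crtc2, at a log2 fold change of 0.18, which kept its call in 4 of the 15 other fits. Sik1, a kinase that restrains this input, fell from 442 ± 34.1 to 222 ± 38.9 normalized counts (SD, n = 3 per group), a log2 fold change of −0.995. Nr3c1, the glucocorticoid receptor, and Crtc3, a CREB coactivator, had log2 fold changes of −0.87 and −0.74. The edgeR adjusted p was 3.7e-05 for Sik1, 4.9e-06 for Nr3c1 and 0.0032 for Crtc3. Creb1 at −0.25 (95% interval −0.56 to 0.06) and Crtc1 at 0.09 (−0.13 to 0.32) were not called.

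All 6 tested output genes were called, 3 higher and 3 lower, where 80.9% of all genes were. Cdkn1a, the cyclin-dependent kinase inhibitor p21, rose 14.0-fold from 820 ± 13.9 to 11494 ± 1740 normalized counts (SD, n = 3 per group). Alas1, the first enzyme of haem synthesis, rose 4.34-fold from 303 ± 19.2 to 1314 ± 102. These genes answer to many signals besides the clock, and the adjusted p of Cdkn1a and Alas1 was 1.5e-10 and 2.8e-09 by edgeR.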

How the data were processed

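RNA from 3 TNF-α and 3 TNF-α+EMO libraries of rat RA-FLS was poly(A)-selected and sequenced as paired ends. Per the labels' processing notes, FastQC, Trimmomatic, HISAT2 and the build Rnor_6.0 were used. The counting program, annotation version and strand setting are not given in the sources used here. The authors deposited raw counts per gene, which were used, and FPKM values, which were not used here. Columns of the authors' own comparison (group means, log2 fold change, p-value and adjusted p) were not used. Depth was 16813322 to 17794455 counts per library, and a gene at 0 may hold up to 3 counts, a floor that covers counting error only.

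The filter kept genes that reached 10 counts in 3 or more libraries. TMM scaling and a model of the group alone in edgeR 4.0.16 (R 4.3.3) were used (robust quasi-likelihood test, Benjamini-Hochberg adjustment over 13614 genes). The fit was also run on simulated counts in which few genes were changed. Since 80.9% of tested genes were called here, that run does not show how the scaling performs on these data. Intervals are at 95%. Normalized counts were scaled to the mean effective library size. Log2 ratios within a library used a pseudocount of 0.5 and an exact permutation test. DESeq2 1.42.0, limma-voom (limma 3.58.1), other scalings and filters, a replicate block and leaving out each library were alternatives. The study's methods call the libraries biological replicates, but the labels name no separate cultures, so p-values measure only the spread between these libraries, which may be technical.

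The members and gene lists were chosen with earlier results of these data known. The rule named all 10 clock genes, the paralogs, ROR receptors, D-box factors and E-box repressors, and in the other subgroups the 3 called genes of largest absolute log2 fold change and those not called. The values of some single genes of the lists are not reported here. Promoters were taken from RefSeq (GRCr8), and the coordinates of the count table are those of another build.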

Additional observations from a re-analysis of the deposited data

How the results depend on the processing

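The number of clock genes called was 7 to 9 of 10 under every alternative test, scaling, filter, replicate block, stricter adjusted p of 0.01 and left-out library, with 7 to 8 when each library was left out. It was 4 with an absolute log2 fold change over 1 also required, where the other clock genes called fell from 27 to 14. Those numbered 24 to 29 otherwise, and 25 to 29 over the left-out libraries. Over 659 single-gene alternatives for 44 genes, 609 kept direction and side of the threshold, 22 lost the call (Clock 4, Btrc 7, Crtc2 11) and 10 gained it (Arntl 6, Creb1 2, Fbxw11 1, Hdac3 1). The cause was not tested. Btrc and Crtc2, at log2 fold changes of 0.20 and 0.18, kept their calls in 8 and 4 of 15 fits.

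The sign turned in 18 alternatives, all of genes that were not called. Cry2 (−0.00) was at 0.00097 with the replicate block, 0.0016 with limma-voom and −0.073 to 0.049 over the left-out libraries. Csnk1d (0.00) was at −0.010 with DESeq2 and with its size factors, −0.041 with upper quartile scaling, −0.11 with library totals only, −0.0014 without a filter, −0.018 with at least 50 counts and −0.045 to 0.018 over the left-out libraries. Csnk1e (0.03) was at −0.010 with upper quartile scaling, −0.082 with library totals only and −0.011 to 0.068 over the left-out libraries, and Crtc1 (0.09) was at −0.019 with library totals only. Library totals only moved the median log2 fold change of all genes from −0.01 to −0.12, and under it the calls of Per1, Per2, Per3, Cry1, Nr1d1, Nr1d2 and Dbp were kept.

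Same-numbered libraries deviated with correlations of 0.020, −0.00066 and 0.057, so no shared effect of the number was seen. These values cannot settle whether cultures were paired by number. With the replicate number as a block, 8 clock genes and 26 others were called. The 7 ratios kept their direction under a pseudocount of 5 and each left-out library. Pairing the libraries by number leaves each mean difference unchanged by construction, so it could not alter the direction.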
